A study of Danio rerio with 6 samples.

Results

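The BMP and TGF-beta pathway was followed by 39 gene lines out of the 27456 in the count table, in GFP-positive cells sorted from zebrafish embryos of a heart muscle reporter line. The list was written by role and by name: 40 names of ligands, receptors, Smads, extracellular regulators, and Id and Msx target genes. Of these, 36 names have a line, and bmp5, bmpr1ba, nog3 and ltbp3 were not analysed here. The rule used names and roles and no measured value, although the list was chosen with earlier results of these data known.

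Cells of both groups came from the transgenic line tg(myl7::gfp), where GFP is under the promoter of myl7, a myosin light chain gene of heart muscle. Morphant embryos were injected before the 4-cell stage with 2 nl of a 0.7 mM morpholino against Gata4, a GATA-family regulator needed for heart and endoderm development, and the controls are labelled wildtype with no statement of a control oligo. Sorting took place at 24 hpf (hours after fertilization) on pools of about 200 embryos, so each library is a pool of animals. There were 3 wildtype and 3 morphant libraries, prepared with the mRNA-Seq kit (wildtype 1 and 2, morphant 1) or the TruSeq kit (wildtype 3, morphant 2 and 3). The morpholino, which defines the morphant group, is a short synthetic antisense oligo of a kind that blocks translation or splicing of its target RNA. It is shown here in lower case, 5′ to 3′, as the one designed sequence of the experiment.
Gata4 morpholino: tccacaggtgagcgattattgcttc
Its target, gata4, was not analysed here, so the knockdown was not checked at the RNA level.

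BMPs and TGF-betas are secreted dimers that bind pairs of type I and type II receptor kinases. BMP receptors phosphorylate Smad1, Smad5 and Smad9, TGF-beta receptors phosphorylate Smad2 and Smad3, and both kinds of Smad enter the nucleus with Smad4. Smad6 and Smad7 inhibit the relay, secreted proteins such as Chordin and Noggin hold BMPs away from their receptors, and Id and Msx genes are widely used readouts of BMP signalling. In the early heart, BMP signals help to specify heart muscle, while BMP and TGF-beta signals act together on the cushions that form the valves.

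Libraries held 12574486 to 37906530 counts. Levels are given as CPM, counts relative to the size of the library, after TMM scaling, which corrects library totals for differences in composition. Libraries of the same group were distinct, and the labels do not say whether they came from separate clutches, so every p-value measures only the spread between these samples. The sort label was checked on markers: the 14 lines of the cardiomyocyte list summed to 3637 to 8872 CPM in wildtype and 2070 to 2992 CPM in morphant libraries, and none was at 0 in all libraries. MYL7 itself was at 1004, 700 and 433 CPM in wildtype 1 to 3 and at 385, 237 and 268 CPM in morphant 1 to 3. These gaps between groups rest on TMM scaling, with factors of 1.291 for morphant 1 and 0.822 for wildtype 3. With library totals alone, morphant 1 lay above wildtype 3 for both the cardiomyocyte sum and MYL7. Markers of other cells were also present and moved between libraries, most of all in morphant 1 and 3. Morphant 1 held 8310 CPM of endoderm and liver markers and 12802 CPM of epidermal markers, against highest wildtype sums of 231 and 2392 CPM. Most of these 2 sums came from few lines, apobb.1 and apoa1a at 5640 and 1506 CPM and krt4 and krt5 at 8417 and 2701 CPM. Leukocyte markers summed to 4796 to 8773 CPM in wildtype and to 779, 7789 and 1885 CPM in morphant 1 to 3. In wildtype 2, wildtype 3 and morphant 2 the leukocyte sums (7547, 8773 and 7789 CPM) exceeded the cardiomyocyte sums (4228, 3637 and 2070 CPM). In morphant 1 and 3 the epidermal sums (12802 and 3124 CPM) exceeded the cardiomyocyte sums (2992 and 2140 CPM). The lists differ in their genes, so these sums do not give cell numbers. In such bulk samples, fewer cells of a type and less RNA per cell cannot be told apart.

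**Figure D1:**
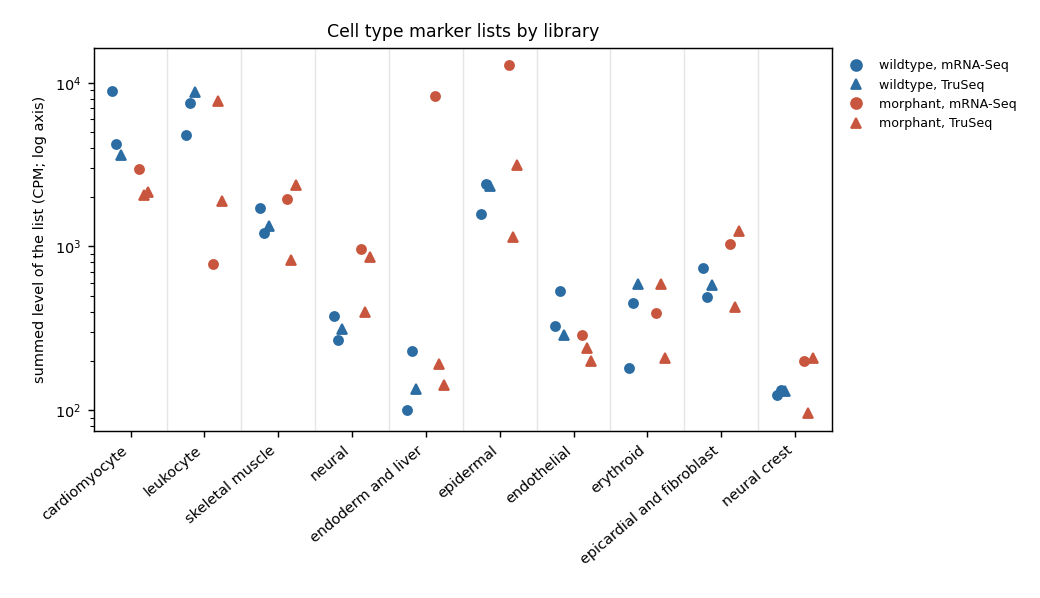
Summed level of each cell type marker list (CPM, log axis) in each library, with colour for group and symbol for library kit. After TMM scaling, cardiomyocyte sums are lower in all 3 morphant libraries (2070 to 2992 CPM) than in the wildtype libraries (3637 to 8872 CPM). The leukocyte, skeletal muscle and neural crest sums of morphant 2 lie away from those of morphant 1 and 3.

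Within the pathway, the BMP ligand gene bmp7a, the BMP antagonist chrd and the BMP target msx1b had the largest fitted differences between groups, all higher in morphants, but no member passed the adjusted test. Of the 38 members tested, 23 had a positive and 15 a negative fitted log2 fold change (morphant minus wildtype), with a median of 0.27 beside 0.07 over all 18033 genes tested. By edgeR with Benjamini-Hochberg adjustment over all genes, 0 members had an adjusted p under 0.05, as did 0% of all genes tested. At an unadjusted p under 0.05, 4 members were higher in morphants (10.5%, against 7.62% of all genes tested): bmp7a, chrd, ID1 and msx1b. None was lower, against 4.92% of all genes. DESeq2 also called 0 members, with 1.56% of all genes called. Scaling by library totals alone moved the median of all genes from 0.07 to 0.46 and that of the members from 0.27 to 0.67, so signs of small changes depend on the scaling.

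The 21 tested lines of the BMP side had a median log2 fold change of 0.44, with 13 positive. The 11 tested lines of the TGF-beta side had a median of -0.27, with 4 positive. With library totals alone the medians were 0.84 and 0.10. The BMP side pools ligands, receptors and Smads with the antagonist chrd and the Id and Msx targets. The TGF-beta side pools ligands, receptors and Smads with LTBP1 and holds no target genes. BAMBI, the SMAD4 lines and the inhibitory Smads are in neither side. The sides thus differ in make-up, and the difference between them was not tested.

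**Figure D2:**
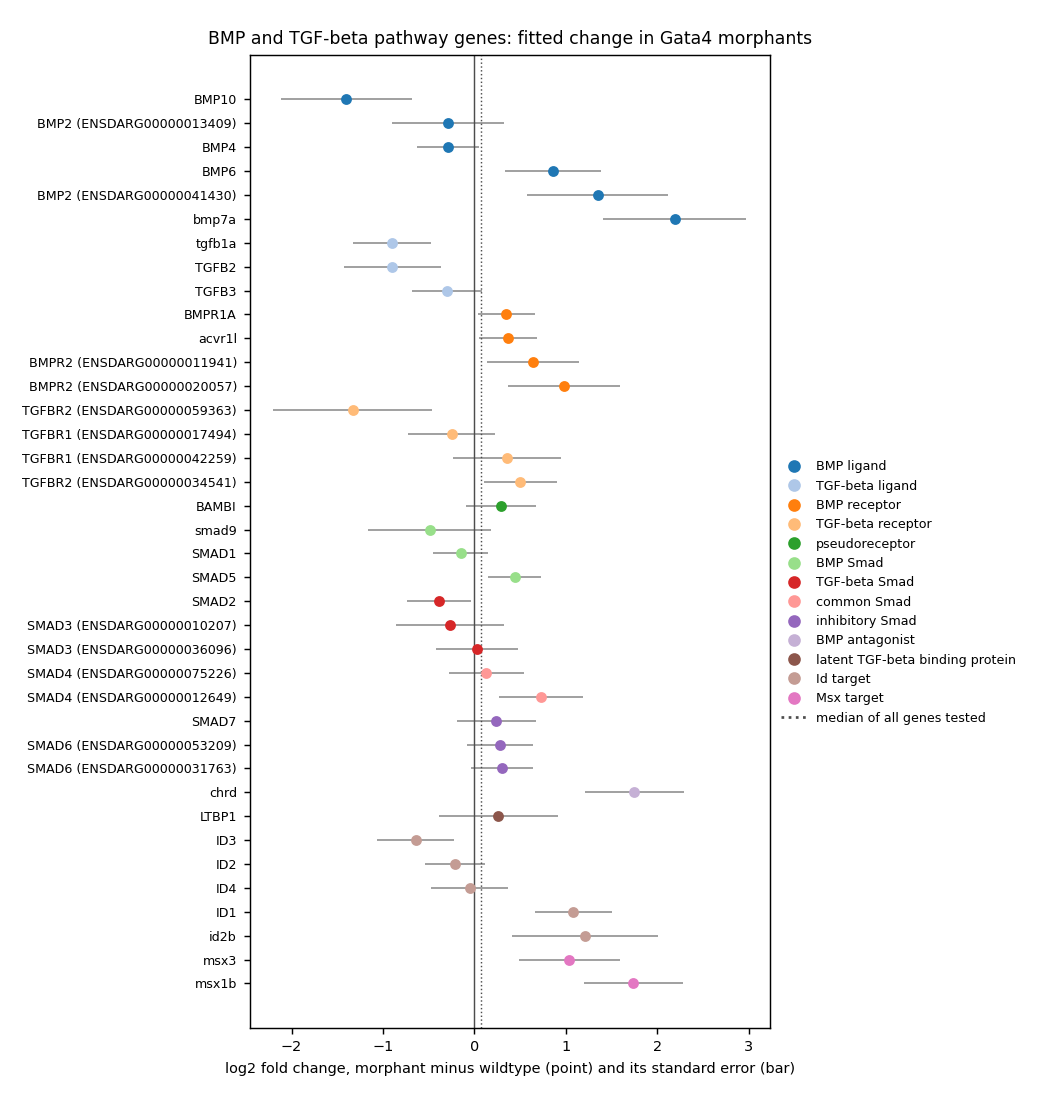
Fitted log2 fold change (point) and its standard error (bar) for the 38 members tested, grouped by role, with the median of all genes tested as a dotted line at 0.07. The values run from -1.40 (BMP10) to 2.19 (bmp7a), with the 3 TGF-beta ligands left of 0 and the 4 BMP receptors right of it.

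Levels of different members were compared only per transcript length, with the authors' RPKM. The Id lines ID1, ID3 and ID2 led this order, while ID4 and id2b, at 3.70 and 0.962 RPKM, ranked 26th and 35th. ID1 was the most abundant at a mean of 295 RPKM over the 6 libraries, above 99.2% of all lines, followed by ID3 at 87.8 RPKM, ID2 at 26.8 RPKM and the pseudoreceptor BAMBI at 22.3 RPKM. The next 6 were BMP4, SMAD1, TGFB3, msx1b, BMPR1A and msx3, at 14.3 down to 11.9 RPKM, and the ranges of these neighbours over libraries overlapped. Of the 38 members tested, the lowest were chrd at 0.772 and bmp7a at 0.418 RPKM.

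**Figure D3:**
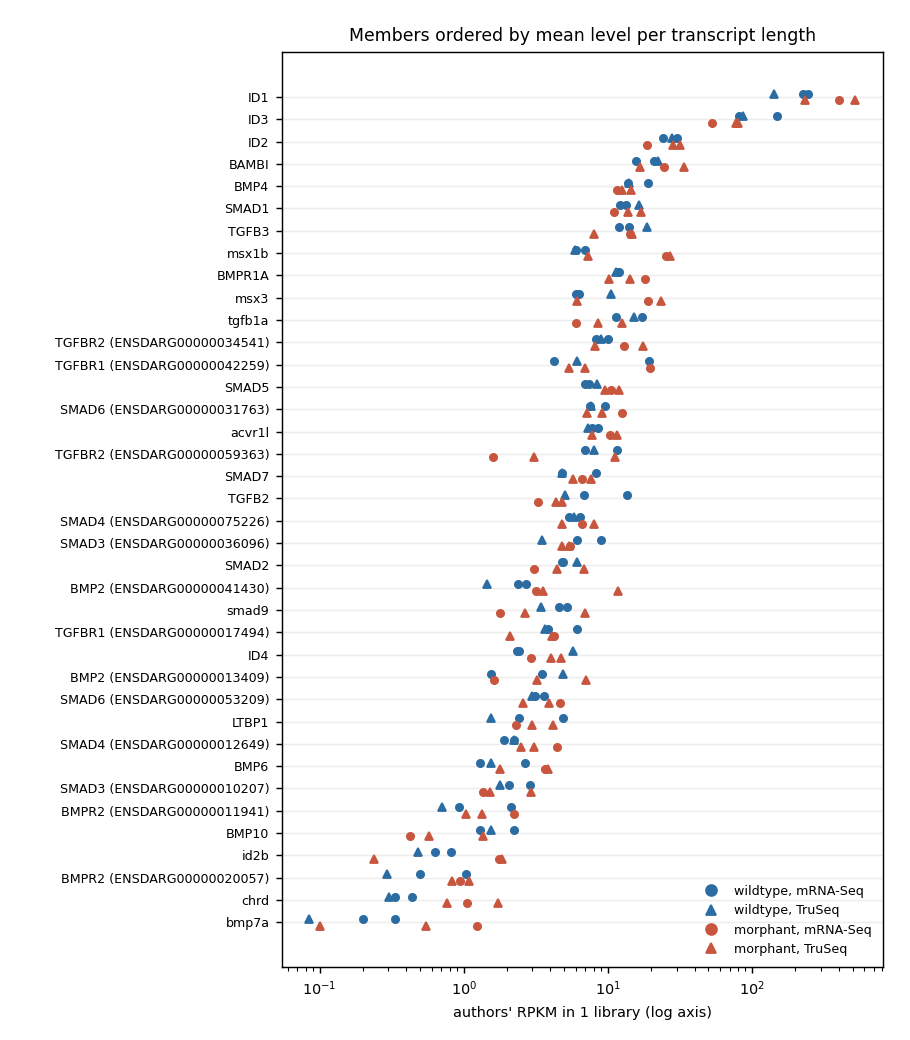
Authors' RPKM (log axis) of the 38 members tested in each library, ordered by the mean over 6 libraries, with colour for group and symbol for kit. ID1 leads at a mean of 295 RPKM and bmp7a is last at 0.418 RPKM.

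Among the BMP ligand lines, BMP4 had the highest RPKM in every library. BMP4, a ligand expressed in the zebrafish heart and its valve-forming region (ENSDARG00000019995), was at 90.7, 63.1 and 64.0 CPM in the wildtype and 52.7, 58.0 and 67.2 CPM in the morphant libraries. The groups overlapped, at a log2 fold change of -0.29 (SE 0.34) that was 0.10 with library totals alone. As a share of the summed RPKM of the 6 BMP ligand lines, BMP4 made up 62.3%, 67.3% and 59.6% in wildtype and 53.4%, 57.5% and 37.2% in morphant libraries. This share does not depend on library scaling and was lower in each morphant library, a comparison chosen after its values were seen and not tested.

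A second ligand, BMP2 (ENSDARG00000041430, 1 of 2 lines that share this name and cannot be assigned to bmp2a or bmp2b), stood at 9.52, 8.03 and 4.81 CPM in wildtype. In the morphant libraries it reached 10.6, 12.2 and 40.2 CPM, each above the highest wildtype value. Its log2 fold change was 1.35 (SE 0.77, adjusted p = 0.418), but 0.20 within the mRNA-Seq libraries and 2.34 within the TruSeq libraries. The other BMP2 line (ENSDARG00000013409) overlapped between groups, at -0.29 (SE 0.61).

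Lower-expressed BMP ligands went both ways. The bmp7a line (ENSDARG00000018260), which encodes the partner of Bmp2 in heterodimers of the early zebrafish embryo, was read by 23, 16 and 5 counts in wildtype and by 89, 15 and 47 counts in morphants. That is 1.51, 0.845 and 0.320 CPM against 5.53, 0.431 and 2.45 CPM, with morphant 2 inside the wildtype range. Its log2 fold change of 2.19 (SE 0.78) was the largest of the members, with p-values of 0.0264 unadjusted and 0.393 adjusted.

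BMP10, a ligand of the heart wall needed for trabecular growth in mouse (ENSDARG00000061769), was at 3.41, 1.85 and 2.24 CPM in wildtype and at 0.559, 0.834 and 1.98 CPM in morphants. Morphant 1 and 2 lay below every wildtype library and morphant 3 within their range, at a log2 fold change of -1.40 (SE 0.72, adjusted p = 0.396). BMP6 (ENSDARG00000015686), a BMP known for its control of hepcidin in iron balance, was at 8.40, 3.86 and 4.61 CPM in wildtype and 10.9, 5.47 and 11.6 CPM in morphants. The BMP6 groups overlapped through morphant 2, at 0.86 (SE 0.53, adjusted p = 0.432).

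The 3 TGF-beta ligands all had negative fitted changes, with a median log2 fold change of -0.90. TGFB3, at 0.11, turned positive with library totals alone. TGFB2, a ligand of the endocardial cushions in mouse (ENSDARG00000027087), was at 102, 48.6 and 36.3 CPM in wildtype and at 23.5, 35.0 and 31.7 CPM in morphants. All 3 morphant libraries were below all 3 wildtype libraries, by means of 62.3 ± 34.9 and 30.1 ± 5.94 CPM (SD, n = 3 each). The log2 fold change was -0.90 (SE 0.53, adjusted p = 0.423), with -1.75 within the mRNA-Seq and -0.19 within the TruSeq libraries, and the non-overlap was lost with library totals alone.

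The tgfb1a line (ENSDARG00000041502), which encodes a ligand with roles in immune cells and matrix, was at 28.7, 18.1 and 24.2 CPM in wildtype and 9.51, 20.2 and 13.6 CPM in morphants. Morphant 1 and 3 were below every wildtype library, and morphant 2 was not, at -0.90 (SE 0.43, adjusted p = 0.394). The same 2 libraries had the lowest leukocyte marker sums, 779 and 1885 CPM. In wildtype the order differed: wildtype 1 had the highest tgfb1a level, 28.7 CPM, and the lowest leukocyte sum of its group, 4796 CPM. The part of those cells in the tgfb1a level was not tested. TGFB3 (ENSDARG00000019367) was at 37.7, 30.7 and 47.9 CPM in wildtype and at 36.4, 21.1 and 38.4 CPM in morphants, overlapping, at -0.30 (SE 0.38).

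None of the 9 receptor lines tested passed a p of 0.05, adjusted or not, beside 0% (adjusted) and 12.5% (unadjusted) of all genes tested. The 4 tested BMP receptor lines had log2 fold changes from 0.35 to 0.98, all positive. BMPR1A (ENSDARG00000019728, a single line that cannot be assigned to bmpr1aa or bmpr1ab), a type I receptor for BMP2 and BMP4, was at 66.0, 63.9 and 61.2 CPM in wildtype and 96.4, 56.2 and 77.7 CPM in morphants. Morphant 2 was the lowest of all 6 libraries and the other 2 morphants the highest, at 0.35 (SE 0.31). The type I receptor acvr1l, which is required for dorsoventral patterning of the zebrafish embryo, ranged from 60.9 to 98 CPM over all libraries, at 0.37 (SE 0.32). Of the 2 lines named BMPR2, the type II receptor, ENSDARG00000020057 was at 9.52, 4.33 and 2.5 CPM in wildtype and 8.14, 7.39 and 9.59 CPM in morphants. The morphant libraries lay closer together than the wildtype ones, at a log2 fold change of 0.98 (SE 0.61, adjusted p = 0.438). It was 0.17 within the mRNA-Seq and 1.68 within the TruSeq libraries, and 0.20 without wildtype 3. BAMBI (ENSDARG00000055381, likewise not assigned to bambia or bambib), a receptor-like protein without a kinase that dampens both ligand families, was at 34.5, 25.0 and 35.4 CPM in wildtype and 38.8, 26.9 and 53.8 CPM in morphants, and the groups overlapped.

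The 4 TGF-beta receptor lines had a median log2 fold change of 0.05. The lines named TGFBR2, a type II receptor, differed from each other in sign, at 0.50 (SE 0.40) for ENSDARG00000034541 and -1.33 (SE 0.87, adjusted p = 0.451) for ENSDARG00000059363. The latter was at 14.4, 23.0 and 15.9 CPM in wildtype and at 3.11, 22.8 and 6.15 CPM in morphants. Morphant 1 and 3 were below every wildtype library, and morphant 2 almost reached the highest. These values follow the order of the leukocyte marker sums over the morphants (779, 7789 and 1885 CPM) but not over the wildtype libraries (4796, 7547 and 8773 CPM). The part of leukocytes in the result was not tested. Within kits the change was -2.66 (mRNA-Seq) and -0.17 (TruSeq). Of the lines named TGFBR1, a type I receptor, ENSDARG00000042259 was at 38.9, 8.19 and 11.9 CPM in wildtype and 38.0, 13.6 and 10.5 CPM in morphants. Its high values were in wildtype 1 and morphant 1, 1 library of each group, at 0.36 (SE 0.59). The other TGFBR1 line (ENSDARG00000017494) was at -0.25 (SE 0.48).

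The Smads carry the signal from the receptors to the nucleus. Fitted changes of their 11 lines ran from -0.49 to 0.73 on the log2 scale, with a median of 0.13. SMAD5 (ENSDARG00000037238), a BMP Smad, was at 46.0, 41.5 and 50.0 CPM in wildtype and 62.0, 58.3 and 72.0 CPM in morphants. Every morphant library was above every wildtype library, with means of 45.8 ± 4.29 and 64.1 ± 7.06 CPM (SD, n = 3 each) and a log2 fold change of 0.44 (SE 0.29, adjusted p = 0.457). SMAD1 (ENSDARG00000027199), the BMP Smad with the highest RPKM, was at 77.6, 81.1 and 99.6 CPM in wildtype and 67.0, 106 and 84.5 CPM in morphants. It overlapped, at -0.15 (SE 0.30), and turned to 0.23 with library totals alone. The third BMP Smad, smad9, was at -0.49 (SE 0.67), with -1.58 within the mRNA-Seq and 0.42 within the TruSeq libraries.

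Of the 2 lines named SMAD4, the partner shared by both branches, ENSDARG00000012649 was at 2.56, 2.06 and 2.43 CPM in wildtype and 4.91, 2.82 and 3.44 CPM in morphants. The groups did not overlap, at 0.73 (SE 0.46, adjusted p = 0.440). The second line (ENSDARG00000075226) did overlap, at 0.13 (SE 0.41). The TGF-beta Smads, SMAD2 and 2 lines named SMAD3, had log2 fold changes from -0.39 to 0.03, and the inhibitory Smads, SMAD7 and 2 lines named SMAD6, from 0.24 to 0.30. None of the 11 Smad lines passed an unadjusted p of 0.05, beside 12.5% of all genes tested.

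Outside the cell, the antagonist chrd (Chordin, a BMP-binding protein of the dorsal organizer, ENSDARG00000006110) was at 2.82, 2.06 and 1.86 CPM in wildtype and 6.59, 4.92 and 10.9 CPM in morphants. All 3 morphant libraries, morphant 2 included, were above all 3 wildtype libraries, with means of 2.25 ± 0.508 and 7.48 ± 3.11 CPM (SD, n = 3 each). Its log2 fold change of 1.75 (SE 0.54) had the smallest edgeR p of the members, 0.0144, with an adjusted p of 0.393. It was 1.36 within the mRNA-Seq and 1.99 within the TruSeq libraries. Neural marker sums were above wildtype in every morphant library, at 268 to 375 CPM in wildtype and 965, 395 and 863 CPM in morphants, by a small margin in morphant 2. By line, this held for 5 of the 13 neural lines tested, beside 7.76% of all genes tested. The part of neural cells in the chrd level was not tested. LTBP1 (ENSDARG00000056922), which tethers latent TGF-beta to the matrix, was at 21.5, 10.1 and 6.47 CPM in wildtype and 9.63, 17.9 and 12.7 CPM in morphants, with overlapping groups.

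The Id genes encode helix-loop-helix proteins without a DNA-binding region that block differentiation factors. Their 5 lines did not move together: ID1 and id2b had positive and ID2, ID3 and ID4 negative fitted changes, of which ID2 and ID4 turned positive with library totals alone. ID1 (ENSDARG00000040764) was at 237, 245 and 144 CPM in wildtype and 400, 238 and 532 CPM in morphants. Morphant 1 and 3 were above all wildtype libraries and morphant 2 was between them. The means were 209 ± 56.0 and 390 ± 147 CPM (SD, n = 3 each), and the log2 fold change was 1.08 (SE 0.42), at an unadjusted p of 0.0392 (0.393 after adjustment). ID3 (ENSDARG00000054823) was at 101, 176 and 102 CPM in wildtype and 62.1, 96.3 and 92.1 CPM in morphants. All morphant libraries were below all wildtype libraries, by a small margin, at -0.64 (SE 0.42, adjusted p = 0.452), and this non-overlap was lost with library totals alone. The ID3 change was -1.23 within the mRNA-Seq and -0.19 within the TruSeq libraries.

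The opposite signs of ID1 and ID3 gave a ratio that needs no library scaling, although it was chosen after the values were seen and has no test. ID1 counts divided by ID3 counts were 2.35, 1.39 and 1.41 in wildtype and 6.45, 2.47 and 5.77 in morphants. The ratio was higher in every morphant library, by a small margin for morphant 2 over wildtype 1. Other count ratios were also computed: msx1b over ID3 was likewise higher in every morphant library. The ratios of SMAD5 over SMAD1, TGFB2 over TGFB3 and BMP4 over TGFB2 overlapped between groups. Of the summed RPKM of the 5 Id lines, ID1 made up 54.3% to 67.5% in wildtype and 84.0%, 67.4% and 81.9% in morphants, so by this share morphant 2 fell inside the wildtype range. ID3 made up 24.4% to 35.0% in wildtype and 11.1%, 23.2% and 12.1% in morphants. Of the other Id lines, ID2 was at 46.0 to 79.4 CPM and ID4 at 2.85 to 6.86 CPM over all 6 libraries, with overlapping groups. The scarce id2b was at 1.51, 1.90 and 1.09 CPM in wildtype and 4.1, 0.547 and 4.38 CPM in morphants, high in morphant 1 and 3 and lowest in morphant 2.

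**Figure D4:**
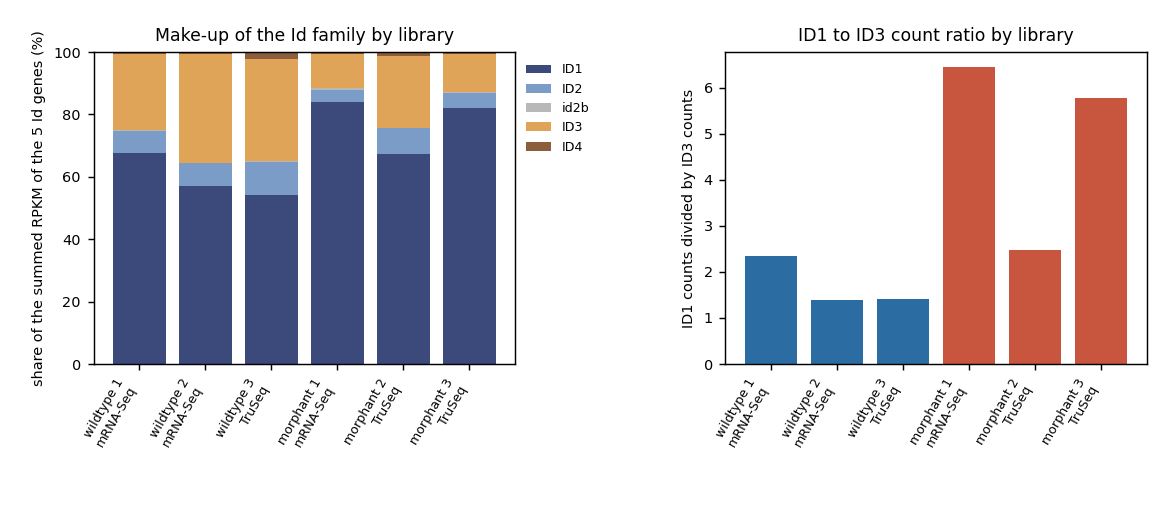
Left, share of each Id gene in the summed authors' RPKM of the 5 Id lines (%), 1 bar per library; right, ID1 counts divided by ID3 counts in each library. The ratio is 1.39 to 2.35 in wildtype and 2.47 to 6.45 in morphant libraries, and morphant 2 stands nearest to wildtype.

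Both Msx lines, homeobox repressors induced by BMPs at the edges of the neural plate and in the heart cushions of mouse, had positive changes. The msx1b line (ENSDARG00000008886) was at 10.1, 8.40 and 8.33 CPM in wildtype and 35.2, 10.4 and 38.4 CPM in morphants. Morphant 1 and 3 stood far above the narrow wildtype range, and morphant 2 just above its top. The means were 8.94 ± 1.01 and 28 ± 15.3 CPM (SD, n = 3 each), at a log2 fold change of 1.74 (SE 0.54), an unadjusted p of 0.0148 (0.393 after adjustment). In the authors' deposited table, msx1b was the single member with an adjusted p under 0.05, at 0.0491 (base means of 172 in wildtype and 509 in morphants), where 2.56% of all lines were called. At an unadjusted p under 0.05 the authors' deposited table held 6 of 39 members (15.4%, against 11.6% of all lines): BMP2 (ENSDARG00000041430), bmp7a, TGFB2, chrd, msx1b and msx3.

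The second Msx line, msx3 (ENSDARG00000015674), was at 13.5, 12.2 and 21.8 CPM in wildtype and 38.8, 12.8 and 48.3 CPM in morphants. Again morphant 1 and 3 were high and morphant 2 lay inside the wildtype range, at 1.04 (SE 0.55, adjusted p = 0.402). Msx genes are also expressed in neural and neural crest cells. The neural crest marker sums were 124, 132 and 130 CPM in wildtype and 198, 95.7 and 207 CPM in morphants, and the 13 neural lines all had positive fitted changes, with a median of 1.32. The neural crest list was mixed, with 6 of 8 tested lines positive. FOXD3, at 2.82, 3.49 and 6.02 CPM in wildtype and 33.6, 2.59 and 23.7 CPM in morphants, was high in morphant 1 and 3, while a line named MITF (ENSDARG00000003732) was lower in every morphant library, at -1.72 (SE 0.36, adjusted p = 0.393). The part of these cells in the Msx levels was not tested.

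**Figure D5:**
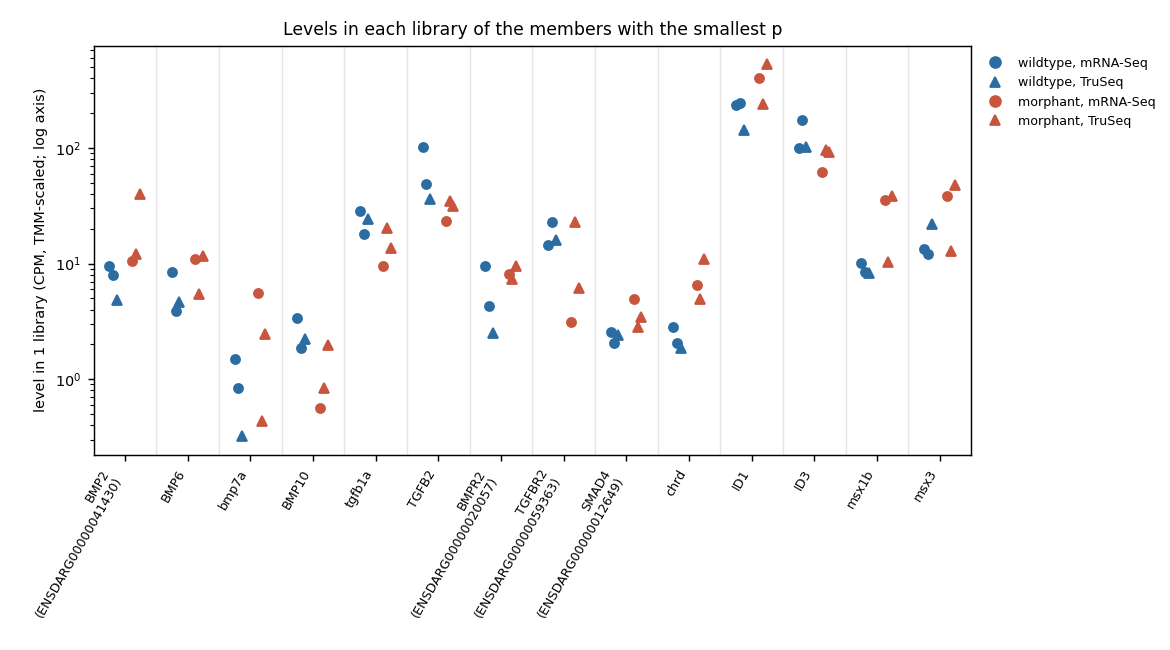
Level in each library (CPM, log axis) of the 14 members with the smallest p, with colour for group and symbol for kit. For msx1b the wildtype libraries are at 8.33 to 10.1 CPM, morphant 2 at 10.4 CPM and the other morphants at 35.2 and 38.4 CPM.

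The morphant libraries were not alike across the pathway. Morphant 2 was inside the wildtype range for 20 of the 38 tested members (52.6%), against 11 each (28.9%) for morphant 1 and morphant 3, close to the 51.0%, 22.9% and 28.1% of all genes tested. In 5 of 38 members every morphant library was above every wildtype library (13.2%, against 7.76% of all genes tested): BMP2 (ENSDARG00000041430), SMAD5, SMAD4 (ENSDARG00000012649), chrd and msx1b. The reverse held for 2 members, TGFB2 and ID3 (5.26%, against 5.78%).

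Without morphant 2, edgeR gave 5 members higher in morphants at an adjusted p under 0.05 (13.2%, against 8.19% of the 19034 genes then tested). They were msx1b (adjusted p = 0.0111), msx3 (0.0208), bmp7a (0.0284), chrd (0.0382) and ID1 (0.0477). One member, 1 of 38 (2.63%, against 11.5%), was lower: TGFBR2 (ENSDARG00000059363, adjusted p = 0.0300). These calls rest on 2 morphant libraries, morphant 1 and 3. Their skeletal muscle sums were 1955 and 2359 CPM, against 1210 to 1725 CPM in wildtype and 824 CPM in morphant 2. Their neural marker sums were 965 and 863 CPM, against 268 to 375 CPM in wildtype and 395 CPM in morphant 2. The part of those cells in the calls was not tested.

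The rest of the pathway was read from a second list of 125 names, written with earlier results of these data known, so it is no independent check. Of its lines, 72 that are not members were tested. None passed an adjusted p of 0.05 by edgeR, and 2 of the 72 did by DESeq2, beside 1.56% of all genes tested. At an unadjusted p under 0.05, 8 were higher (11.1%) and 3 lower (4.17%), beside 7.62% and 4.92% of all genes. Without morphant 2, 9 of 77 were higher (11.7%) and 5 lower (6.49%) at an adjusted p under 0.05, beside 8.19% and 11.5% of all genes then tested.

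Of the 12 other extracellular regulators tested, 5 had an unadjusted p under 0.05, beside 12.5% of all genes in both directions. Of these 5 lines, 4 were higher in morphants. A line named FST (Follistatin, which binds activins and BMPs; ENSDARG00000052846) was at 10.6, 10.8 and 14.4 CPM in wildtype and 84.1, 11.2 and 276 CPM in morphants. Morphant 1 and 3 were far above wildtype and morphant 2 was not, at 3.15 (SE 1.04), with adjusted p-values of 0.393 by edgeR and 0.0428 by DESeq2. The other line named FST (ENSDARG00000057992) was at 15.4, 14.4 and 6.73 CPM in wildtype and 19.3, 49.0 and 38.4 CPM in morphants. This line was above wildtype in every morphant library and highest in morphant 2, at 1.53 (SE 0.63, adjusted p = 0.393). It was 0.31 within the mRNA-Seq and 2.63 within the TruSeq libraries. The BMP antagonist nog2, of the Noggin family, was at 3.08, 2.22 and 2.43 CPM in wildtype and 6.21, 4.49 and 12.7 CPM in morphants. Like chrd it was higher in every morphant library, at 1.52 (SE 0.58, adjusted p = 0.393).

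The 2 Lefty genes, secreted inhibitors of Nodal signalling, had opposite signs. The heart-field gene lft2 was at 254, 98.5 and 141 CPM in wildtype and 52.8, 69.6 and 77.2 CPM in morphants, lower in every library, at -1.34 (SE 0.47, adjusted p = 0.393). The less abundant lft1 was at 1.90, 1.11 and 0.641 CPM in wildtype and 4.47, 4.17 and 1.56 CPM in morphants, overlapping through morphant 3, at 1.85 (SE 0.63, adjusted p = 0.393). After TMM scaling, but not with library totals alone, the cardiomyocyte marker sum was lower in every morphant library beside lft2. By line, 12 of 13 tested were negative, at a median of -1.02, and 8 were lower in every morphant library, beside 5.78% of all genes tested. The part of heart muscle cells in the lft2 level was not tested.

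Of the 8 other receptor and co-receptor lines tested, 2 had an unadjusted p under 0.05, both higher, beside 12.5% of all genes in both directions. HJV and RGMA, which belong to a family of BMP co-receptors, differed by 2.67 (SE 0.89) and 1.62 (SE 0.60) on the log2 scale, each at an adjusted p of 0.393. RGMA was at 26.6, 16.2 and 27.6 CPM in wildtype and 104, 20.8 and 86.0 CPM in morphants, with morphant 2 inside the wildtype range. HJV was at 3.48, 3.91 and 5.45 CPM in wildtype and 38.3, 3.05 and 39.3 CPM in morphants, high in morphant 1 and 3. The skeletal muscle factor MYOD1, a single line picked from its marker list, was high in the same libraries. It was at 6.17, 4.38 and 5.77 CPM in wildtype and 49.6, 3.19 and 47.6 CPM in morphants. The whole list moved less evenly: of 13 lines tested, 12 were positive and 1 negative. MYOD1 changed by 2.69 on the log2 scale, and the more abundant lines named ACTA1 by 0.24 and -0.47. List sums were 1210 to 1725 CPM in wildtype and 1955, 824 and 2359 CPM in morphants. The part of muscle cells in the HJV level was not tested. Of the 17 other response genes tested, 2 had an unadjusted p under 0.05, both T-box genes, beside 12.5% of all genes in both directions. Fitted changes of these 17 genes were positive for 9 and negative for 8. TBX3, a T-box repressor of the conduction system and other tissues, was at 3.87, 4.23 and 2.37 CPM in wildtype and 30.7, 2.96 and 12 CPM in morphants. Morphant 2 was inside the wildtype range, at 2.30 (SE 0.63), with adjusted p-values of 0.393 by edgeR and 0.0464 by DESeq2. TBX2 (ENSDARG00000006120), a related repressor, had 1.39 (SE 0.51, adjusted p = 0.393). It was at 7.94, 8.19 and 6.98 CPM in wildtype and 29.2, 6.65 and 19.9 CPM in morphants, with morphant 2 below every wildtype library. Of the 20 other intracellular regulators tested, 2 had an unadjusted p under 0.05, both lower, beside 12.5% of all genes in both directions. They were the Ski-type repressors of Smad activity SKIL and skilb, at -1.32 (SE 0.51) and -1.05 (SE 0.43), each at an adjusted p of 0.393. The related lines SKI and skib had positive changes, at 0.11 (SE 0.31) and 0.68 (SE 0.38), and skib was higher in every morphant library.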

How the data were processed

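Gene counts and RPKM values of the 6 libraries were deposited by the authors in 1 table with their base mean (a normalized signal per group), p-values and adjusted p-values. Per the submitters' processing notes, CASAVA 1.7.0, BWA, DESeq and the build Zv9 were used; the counting settings were not stated there. Recomputed from the deposited counts, the authors' RPKM values are proportional to count + 1, within a tolerance of 1% for 100% of values. The 27456 lines carry Ensembl identifiers. Symbols came from a name table covering 69.9% of lines, some in the human style (BMP4), and paralogs sharing a symbol are given by identifier. The largest count of morphant 2 is stored rounded, as 1030000.

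Counts were tested with edgeR 4.0.16 (R 4.3.3; TMM, filterByExpr, quasi-likelihood F test, two-sided, kit plus group, Benjamini-Hochberg over the 18033 genes kept, threshold 0.05, 3 residual degrees of freedom), with a biological coefficient of variation of 0.47. Each SE was derived as the absolute log2 fold change divided by the square root of the F statistic. The script was tested on simulated data without a kit effect. Its required recovery was set at a spread between samples below that of these data, so passing it does not measure the power to call genes here. Counting strand is not stated, so overlapping antisense reads cannot be separated. Alternatives were library totals, RLE scaling, no filter, no kit term, DESeq2 1.42.0, limma-voom (limma 3.58.1), leaving out each library, and each kit alone. Members, the second list of pathway names, marker lists and alternatives were chosen with earlier results of these data known. Values in all libraries are given for the 14 members with the smallest p at a mean of at least 1 CPM. They are also given for the 2 members with the highest RPKM of each class. TGFBR1 and the other Id genes were added after their values were seen. The 10 other pathway genes with the smallest p are named, and the second FST line, SKI and skib were added after their values were seen. Numbers of replicates only name the libraries, in deposit order. Endothelial, erythroid, and epicardial and fibroblast markers summed to 289 to 532, 180 to 591 and 492 to 735 CPM in wildtype, and to 199 to 289, 208 to 591 and 426 to 1239 CPM in morphants. Of the 39 member lines, 38 passed the filter, and 1 is not reported here.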

Additional observations from a re-analysis of the deposited data

How the results depend on the processing

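Over 14 alternatives, all 196 refitted log2 fold changes of the 14 members with the smallest p kept their sign. These members were picked by their p in the same libraries, so this was favoured in advance and is no support. Over all 38 members tested, 23 kept their sign in every alternative and 15 did not, among them LTBP1, ID4 and both SMAD3 lines. The number of all genes called, 0 with all libraries, was 44 with no filter, 281 by DESeq2, 4352 within the mRNA-Seq and 1 within the TruSeq libraries, and ran from 0 to 3745 when 1 library was left out, with 3745 without morphant 2. The 4 members at an unadjusted p under 0.05 (10.5%, against 12.5% of all genes in both directions) became 1 to 9 with 1 library left out. They were 1 without morphant 1 (2.63%, against 2.51%), 2 without wildtype 1 (5.26%, against 6.17%) and 2 without wildtype 2 (5.26%, against 4.29%). They were 3 without wildtype 3 (7.89%, against 15.7%), 3 without morphant 3 (7.89%, against 6.30%) and 9 without morphant 2 (23.7%, against 37.1%). The 11 other pathway genes (15.3%) became 7 by limma-voom (9.72%, against 12.5%), 27 within the mRNA-Seq (34.6%, against 34.1%) and 2 within the TruSeq libraries (2.60%, against 2.56%), and 1 to 25 with 1 library left out (25 without morphant 2, 32.5% against 37.1%). Members higher in every morphant library numbered 5 to 15 and those lower 2 to 6 with 1 library left out. Without morphant 2 they were 15 (39.5%, against 28.6% of all genes) and 6 (15.8%, against 26.7%), and those lower were 0 with library totals alone, against 3.28% of all genes. Of 154 refitted medians by role, 33 moved by more than the SD between libraries of the mean log2 level of the role.

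Within 1 kit, the lone sample of a group is assumed to vary like the other group. No paired analysis was possible because the labels give no replicate numbers. Each group has 3 libraries, prepared with 2 kits, and for bmp7a, BMP10, id2b, chrd and SMAD4 (ENSDARG00000012649) the counts are few. In wildtype, chrd had 43, 39 and 29 counts and this SMAD4 line 39, 39 and 38.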
